A study of Homo sapiens with 18 samples.

Results

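The change with arsenite stress in the RNA that coprecipitated with TIAR, taken beyond the change of total RNA, was measured in cultured U251-MG cells. This is a long-established line from a human astrocytoma, a tumour of glial cells. For each RNA it is the log2 value of the stressed minus the unstressed TIAR immunoprecipitate, less the log2 value of stressed minus unstressed input. It uses 12 of the 18 exon arrays of the study, 3 in each of 4 groups. The groups were TIAR RNA immunoprecipitates (RIPs) from cells given 500 µM arsenite, TIAR RIPs from cells given the vehicle DMSO, whole-lysate RNA (input) from arsenite-treated cells and input from vehicle-treated cells, all harvested at 30 min. Arsenite-treated cells are called stressed here and vehicle-treated cells unstressed. The cells carried no stated genetic change, and all groups come from this 1 line. The other 6 arrays hold RIPs made with an antibody to G3BP1, stressed and unstressed, and share no array with this change. They entered the fit only to estimate the spread between arrays and served as a separate comparison.

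TIAR, encoded by TIAL1, is an RNA-binding protein that prefers U-rich and AU-rich sequence and represses translation. Arsenite causes oxidative stress and phosphorylation of the initiation factor eIF2, so that initiation stalls and untranslated mRNAs gather with TIAR, G3BP1 and other proteins in stress granules. An immunoprecipitate from stressed cells can therefore hold more of an mRNA through more association or through more of that mRNA in the cell. The comparison with input subtracts the second quantity as far as RIP and input signals respond alike, which was not tested. The arrays include no control precipitate without a specific antibody, so RNA carried over unspecifically was not measured apart.

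The values are log2 signals of transcript clusters, groups of exon probe sets that mostly stand for 1 gene, and a difference of 1 is a 2-fold difference. RIP and input values show the make-up of an RNA sample, not how much RNA was recovered. The number of arrays, 3 in a group, limits the precision, and in bulk RNA fewer cells with an mRNA and less of it per cell cannot be told apart. Array medians ran between 7.75 and 7.8 in the TIAR RIPs and between 7.73 and 7.95 in input. Replicate 1 of stressed input stood apart from its group, with an upper quartile of 9.17 against 9.54 and 9.57 in its companions and a mean correlation of 0.98 with them. Replicate 3 of the unstressed G3BP1 RIP did so as well (mean correlation 0.98), and values without both arrays are given beside the results. In stressed and unstressed input the glial and mesenchymal marker VIM lay at 13.19 and 12.95, CD44 at 12.07 and 11.72, the astrocyte marker GFAP at 8.36 and 8.45 and the water channel gene AQP4 at 5.05 and 4.78. Markers of other cell types did not all lie low in input. The leukocyte marker PTPRC lay at 3.77 and 3.61 and the epithelial adhesion gene EPCAM at 3.39 and 3.47, but the epithelial keratins KRT8 and KRT18 lay at 12.41 and 11.07 in stressed input, against 11.96 and 10.92 in unstressed input. The neuron marker NEFL lay at 13.31 and 13.35 in stressed and unstressed input, but the other neuron markers measured lay far lower. SNAP25 lay at 6.84 and 6.64, STMN2 at 6.83 and 6.75, MAP2 at 8.05 and 8.32 and SYT1 at 8.54 and 8.83.

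Few RNAs were called as changed differently by arsenite in the TIAR RIP and in input, and most of those called gained in the RIP. Of 22011 transcript clusters, 133 (0.604%) rose in the TIAR RIP beyond input and 11 (0.05%) fell (limma with Benjamini-Hochberg adjustment, adjusted p under 0.05). The gains ran between 0.40 and 1.42 on the log2 scale with a median of 0.733, and the losses between -0.59 and -1.52. All 133 and all 11 had 1 sign in all 81 combinations of 1 array from each group, which 2023 transcript clusters (9.19%) had on the higher side and 354 (1.61%) on the lower. The median over all transcript clusters was 0.0608, against a median standard error of 0.195. A single gene name could be given to 80 of the gains and 7 of the losses, several names to 15 and 0, and none to 38 and 4. Some unnamed gains had near-adjacent identifiers and similar values, such as 3958266 (1.13), 3958267 (1.39) and 3958269 (1.42). These may not be separate RNAs, which was not tested, so the counts here and below are of transcript clusters and not of genes. At an unadjusted p under 0.05 (limma), 2238 transcript clusters were higher in the TIAR RIP beyond input and 588 lower. The few calls therefore do not show that few RNAs moved differently.

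Increases made up 92.4% of the calls, and this share depended on scaling and on arrays. It was 79.1% after median centring of each array, which moved the median of all transcript clusters by -0.11, and 73.6% after quantile normalization. When both arrays that stand apart were left out, 594 transcript clusters rose (2.7%) and 138 fell (0.627%), and these held all 133 and all 11, with increases at 81.1% of the calls. Leaving out 1 array at a time gave 31, 45 and 69 rises without replicates 1, 2 and 3 of the stressed TIAR RIP, and 46, 14 and 37 without those of the unstressed TIAR RIP. Without replicates 1, 2 and 3 of stressed input there were 47, 91 and 112 rises, and without those of unstressed input 17, 18 and 22. The falls ran from 1 to 16 over these 12 settings.

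The calls lay mostly among strong signals. Of the 133 rises, 117 lay in the top 25% of transcript clusters by mean level, 13 in the next 25%, 3 in the 25% below and 0 in the lowest 25%. Called rises had a median level of 10.9, against 7.88 over all transcript clusters. The median change beyond input was 0.229 in the top 25% and -0.0576 in the lowest, or 0.114 and -0.0481 without both arrays that stand apart. The part of signal level in the calls was not tested.

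**Figure D1:**
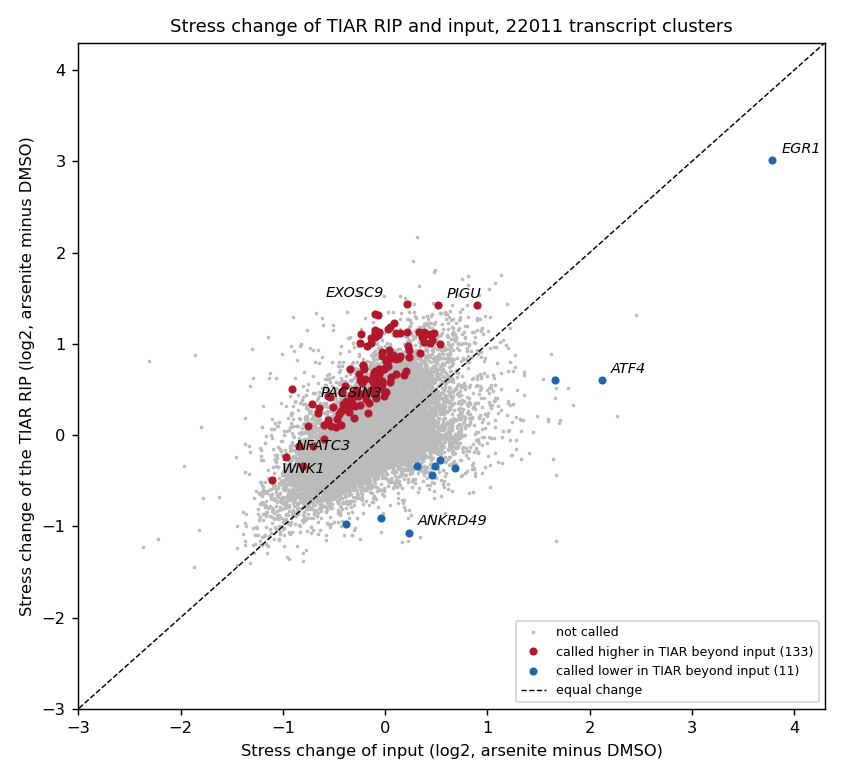
Stress change of the TIAR RIP (y axis, log2, arsenite minus DMSO) against that of input (x axis, log2) for 22011 transcript clusters, 1 point each. The dashed line marks equal change, the 133 called higher lie above it and the 11 called lower lie below it, with ATF4 and EGR1 at the right because input itself rose by 2.12 and 3.79.

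The largest loss was that of ATF4, and EGR1 was among the smaller ones. ATF4 (transcript cluster 3945914), the transcription factor that eIF2 phosphorylation induces, had 7.87, 8.09 and 7.83 in stressed TIAR RIPs, against 7.46, 7.16 and 7.38 in unstressed ones. In input it had 10.41, 10.43 and 10.68 in stressed cells, against 8.39, 8.49 and 8.29 in unstressed cells. Both pairs of groups separated without overlap, but the step in input was far wider. The TIAR RIP value of ATF4 rose by 0.60 (limma, adjusted p = 0.0035) and the input value by 2.12, so that its TIAR change beyond input was -1.52 ± 0.17 (SE; limma, adjusted p = 0.00227; 0.349-fold). The difference of TIAR RIP from input was -2.57 in stressed cells and -1.05 in unstressed cells. The unstressed TIAR RIP values of ATF4 lay below the medians of those arrays (7.75 to 7.8). The part of signal level in this loss was not tested. Without both arrays that stand apart the value was -1.57 (limma, adjusted p = 0.00103), and ATF4 stayed called in all 22 alternatives run.

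EGR1 (2830861), an immediate early transcription factor gene, had 13.21, 13.03 and 13.02 in stressed TIAR RIPs, against 10.05, 10.12 and 10.04 in unstressed ones. In input it had 12.19, 12.45 and 12.47 in stressed cells, against 8.67, 8.56 and 8.53 in unstressed cells. No arrays overlapped in either pair. EGR1 rose by 3.01 in the TIAR RIP, by 3.79 in input and by 3.86 in the G3BP1 RIP, and its TIAR change beyond input was -0.77 ± 0.13 (limma, adjusted p = 0.0193). It was above input in the TIAR RIP in both states, by 0.71 in stressed cells and 1.49 in unstressed cells. Its call was lost without replicate 2 of the unstressed TIAR RIP and without replicates 2 or 3 of unstressed input. Over all 22 alternatives its value ran from -0.90 to -0.72, with a limma adjusted p of at most 0.0709.

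For ANKRD49 and PBDC1 only the TIAR RIP change was called. ANKRD49 (3345107) had 9.02, 8.74 and 9.31 in stressed TIAR RIPs, against 10.41, 9.99 and 9.88 in unstressed ones, and 9.01, 9.25 and 9.14 in stressed input against 8.70, 8.98 and 9.03 in unstressed input. The TIAR arrays separated and the input arrays overlapped. ANKRD49 fell by 1.07 in the TIAR RIP (limma, adjusted p = 0.00033), while its input change was 0.23 (limma, adjusted p = 0.38), and the value beyond input was -1.30 ± 0.22 (limma, adjusted p = 0.0204). Its difference from input was -0.11 in stressed cells and 1.19 in unstressed cells. PBDC1 (3982242) had 8.94, 8.83 and 9.17 in stressed TIAR RIPs, against 9.88, 9.81 and 9.99 in unstressed ones, with input at 9.85, 9.96 and 10.18 against 10.20, 10.00 and 9.94. Only its TIAR arrays separated, and the TIAR change beyond input was -0.87 ± 0.15 (limma, adjusted p = 0.0204). Over the 22 alternatives the call was lost in 4 for ANKRD49 and 7 for PBDC1, at adjusted p values of up to 0.0681 and 0.0742.

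The largest called gain among the named genes was that of EXOSC9. EXOSC9 (2741768), a subunit of the RNA exosome, had 9.28, 9.09 and 9.32 in stressed TIAR RIPs, against 7.92, 7.78 and 7.67 in unstressed ones. In input it had 10.62, 11.25 and 11.11 in stressed cells, against 10.74, 10.85 and 10.76 in unstressed cells. The TIAR arrays separated widely and the input arrays overlapped. The TIAR change beyond input was 1.23 ± 0.20 (limma, adjusted p = 0.0196; 2.34-fold), or 1.04 without both arrays that stand apart, and its call was lost in 6 of 22 alternatives, at an adjusted p of up to 0.0709. In the G3BP1 RIP EXOSC9 fell by 0.85 (limma, adjusted p = 0.001).

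AATF (3719362), a nucleolar protein of ribosome assembly, had 8.91, 8.87 and 8.95 in stressed TIAR RIPs, against 8.03, 7.97 and 7.81 in unstressed ones. In input it had 10.63, 10.76 and 10.82 in stressed cells, against 10.92, 10.85 and 10.96 in unstressed cells. Stressed arrays were all higher in the RIP and all lower in input, and only the RIP change was called. The TIAR change beyond input was 1.15 ± 0.13 (limma, adjusted p = 0.00227), and AATF fell by 0.89 in the G3BP1 RIP. WDR74 (3376235), which also serves assembly of the large ribosomal subunit, had a change beyond input of 0.93 ± 0.12 (limma, adjusted p = 0.00587).

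DNAJC7 (3757487), a cochaperone of HSP70 and HSP90, had 9.27, 9.31 and 9.44 in stressed TIAR RIPs, against 8.44, 8.19 and 8.18 in unstressed ones. In input it had 10.16, 10.47 and 10.44 in stressed cells, against 10.46, 10.45 and 10.46 in unstressed cells. The TIAR arrays did not overlap, and the input arrays did. Its change beyond input was 1.17 ± 0.14 (limma, adjusted p = 0.00227). ENO1 (2395490), the glycolytic enzyme enolase, had 12.85, 12.80 and 12.72 in stressed TIAR RIPs, against 11.77, 11.65 and 11.54 in unstressed ones. Input ENO1 lay at 13.61, 13.70 and 13.74 in stressed cells, against 13.45, 13.50 and 13.47 in unstressed cells. ENO1 was among the brightest RNAs named and its change beyond input was 0.92 ± 0.11 (limma, adjusted p = 0.00227).

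Other large gains were S100A13, a calcium-binding protein gene (1.18 ± 0.24), IMPDH2, the rate-limiting enzyme of guanine nucleotide synthesis (1.15 ± 0.21), PSME1, a subunit of the PA28 proteasome activator (1.00 ± 0.14), and DYNC1H1, the heavy chain of cytoplasmic dynein (0.97 ± 0.18). FAM50A (0.92 ± 0.13) and SARS1 (0.93 ± 0.18) followed. These 6 had limma adjusted p values between 0.00655 and 0.0441. Their input changes lay between -0.26 and 0.15 and were not called. S100A13 varied most between stressed TIAR RIPs, at 8.64, 9.21 and 8.35, against 7.76, 7.39 and 7.73 in unstressed ones, and its call was lost in 16 of 22 alternatives. The call was lost in 8 for IMPDH2, 9 for DYNC1H1 and 11 for SARS1, and in 0 for PSME1 and FAM50A.

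**Figure D2:**
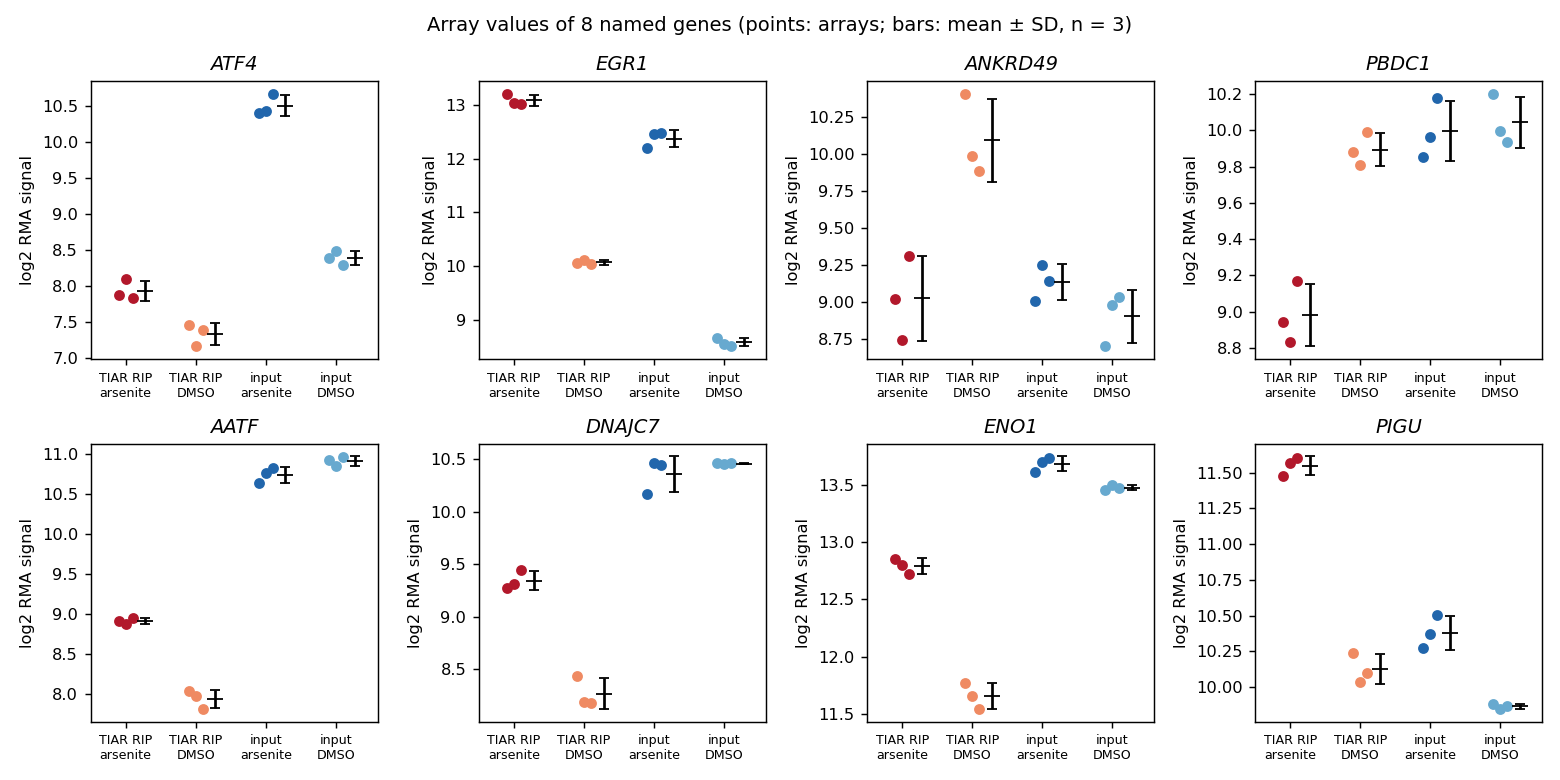
Log2 signal of 8 named genes on each array (points, y axis) in stressed and unstressed TIAR RIPs and in stressed and unstressed input (x axis), with black bars for mean ± SD (n = 3). In ATF4 the input step is wider than the RIP step, while in AATF, DNAJC7 and ENO1 the RIP arrays separate and input moves by 0.21 or less.

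For the rises the difference came mainly from the RIP. Among the 133 rises, the TIAR change alone was called in 84, the input change alone in 20, both in 1 direction in 15 and both in opposite directions in 14. The TIAR RIP change was called higher in 111 of them (6.15% over all transcript clusters) and lower in 2 (5.71%). The input change was called higher in 13 (2.52%) and lower in 36 (11.2%). The medians were 0.659 in the TIAR RIP and -0.104 in input. These component changes share their arrays with the change beyond input, so they show how each value is made and are no separate evidence. Among the 11 falls the TIAR change was called lower in 5 and higher in 3, and the input change higher in 8 and lower in 1. The medians of these falls were -0.344 in the TIAR RIP and 0.492 in input.

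Some gains were mRNAs that fell in input, and some rose in both samples but more in the RIP. NFATC3 (3666033), a calcium-regulated transcription factor gene, had 12.17, 12.08 and 12.21 in stressed TIAR RIPs, against 12.43, 12.38 and 12.37 in unstressed ones. Its input values were 9.58, 9.97 and 10.02 in stressed cells, against 10.85, 10.79 and 10.83 in unstressed cells. The input arrays separated by far more than the RIP arrays. NFATC3 fell by 0.97 in input, and its TIAR change was -0.24 (limma, adjusted p = 0.17), so that the change beyond input was 0.73 ± 0.14 (limma, adjusted p = 0.0373). WNK1, a kinase gene of ion transport, fell by 1.10 in input and by 0.49 in the TIAR RIP, with 0.61 ± 0.13 beyond input (limma, adjusted p = 0.0441). GUK1, guanylate kinase, fell by 0.64 in input, and its TIAR change was 0.30 (limma, adjusted p = 0.155). Its change beyond input was 0.94 ± 0.17 (limma, adjusted p = 0.0316). PACSIN3, a membrane-curving endocytic protein gene, fell by 0.72 in input and rose by 0.34 in the TIAR RIP (limma, adjusted p = 0.033). POLD2, a DNA polymerase delta subunit gene, fell by 0.42 in input and rose by 0.47 in the TIAR RIP (limma, adjusted p = 0.02), with 0.89 ± 0.17 beyond input. PIGU, a subunit of the GPI transamidase, rose by 1.42 in the TIAR RIP and by 0.52 in input, and IQGAP1, a cytoskeletal scaffold, rose by 1.43 and 0.90. Their changes beyond input were 0.91 ± 0.17 and 0.53 ± 0.11 (limma, adjusted p = 0.0312 and 0.0391). After quantile normalization NFATC3 and WNK1 lost their calls, with changes beyond input of 0.43 and 0.33. Of the 22 alternatives the call was lost in 9 for GUK1, 10 for PIGU, 12 for NFATC3, 12 for POLD2, 14 for WNK1 and 15 for IQGAP1, and in 0 for PACSIN3.

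Most RNAs that rose in the TIAR RIP beyond input were still lower in the RIP than in input. Set against input, the TIAR RIP was lower for 102 of the 133 in stressed cells (23.5% over all) and for 115 in unstressed cells (23.8%), and 102 were lower in both. It was higher for 22 in stressed cells (20.3%) and for 10 in unstressed cells (16.8%), and the same 10 were higher in both. Of the rest, 9 were lower in unstressed cells and not called in stressed cells, 8 were not called in unstressed cells and higher in stressed cells, and 4 were lower in unstressed cells and higher in stressed cells. The median difference from input was -0.877 in stressed cells and -1.65 in unstressed cells. Among the 11 losses the TIAR RIP was higher than input for 1 in stressed cells and 8 in unstressed cells, and the medians were -0.156 and 0.58. These levels come from the arrays that made the calls and are a description.

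**Figure D3:**
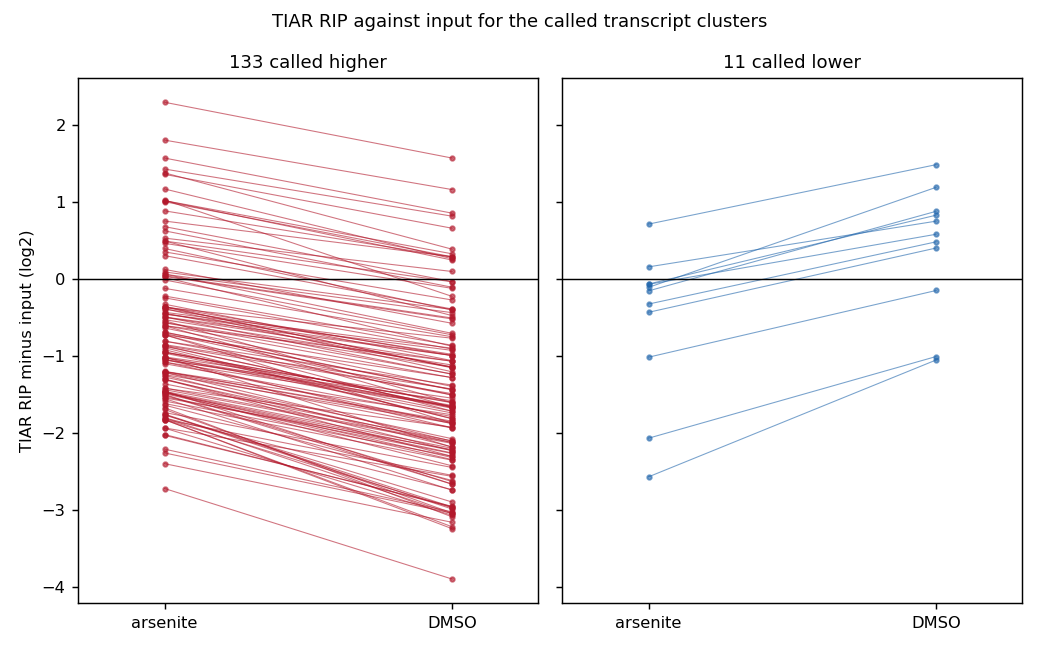
Difference between TIAR RIP and input (y axis, log2) for each called transcript cluster in arsenite-treated and DMSO-treated cells (x axis), with 133 called higher on the left and 11 called lower on the right. In the left panel 102 of 133 lie below input in both states, and in the right panel 8 of 11 lie above input under DMSO.

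The G3BP1 RIP, which shares no array with the change beyond input, moved both ways among these RNAs. Of the 133 rises, 37 rose with stress in the G3BP1 RIP (27.8%, against 10.4% over all transcript clusters) and 23 fell (17.3%, against 4.08%), with a median of 0.0597. Without both arrays that stand apart 38 rose (28.6%, against 11.1%) and 35 fell (26.3%, against 13.7%). Of the 11 losses 4 rose (36.4%) and 1 fell (9.09%), in both settings. The fit gives each transcript cluster 1 estimate of spread for all contrasts, so these G3BP1 calls are not fully separate from the choice of these RNAs. The high signal level of these RNAs also differs from that of all transcript clusters. The part of the shared spread and of signal level in these shares was not tested.

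The list of tRNA synthetases, which charge tRNAs with amino acids, held 19 measured genes. AIMP1 among them (change beyond input -0.12, not called) is a scaffold protein of the synthetase complex and charges no tRNA. Of the 19, 4 rose and 0 fell. Their median was the highest of the lists shown (0.556, against 0.0686 over 14232 named genes and 0.246 in the top 25% of these by level). Over all named genes 80 rose and 6 fell, and in the top 25% 70 of 3558 rose and 2 fell. QARS1 (2673937), for glutamine, had 11.82, 11.72 and 11.71 in stressed TIAR RIPs, against 10.62, 10.74 and 10.58 in unstressed ones. In input it had 11.81, 12.11 and 12.07 in stressed cells, against 11.55, 11.60 and 11.53 in unstressed cells. All stressed arrays were higher in both, by more in the RIP. The changes beyond input were 0.67 ± 0.12 for QARS1, 0.93 ± 0.18 for SARS1 (serine), 0.63 ± 0.13 for WARS1 (tryptophan) and 0.51 ± 0.10 for FARSA (phenylalanine), with limma adjusted p values of 0.0211, 0.0373, 0.039 and 0.0366. Across the 22 alternatives the call was lost in 7 for QARS1, 11 for SARS1, 13 for WARS1 and 16 for FARSA. TARS1 (1.01 ± 0.25), EPRS1 (0.93 ± 0.29) and RARS1 (0.92 ± 0.27) had values of this size with wider errors and were not called (limma, adjusted p = 0.0822, 0.166 and 0.147). In 14 of 19 the sign was higher in all 81 combinations of arrays. With both arrays that stand apart left out, 8 were called higher and 0 lower, with a median of 0.51. In the top 25% of named genes by level 279 of 3558 rose in that setting, at a median of 0.125. Over the 22 alternatives the synthetase count ran from 0 to 14.

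In the RIPs the genes of this list moved apart. In the TIAR RIP 12 of 19 rose with stress and 0 fell, against shares over all transcript clusters of 6.15% higher and 5.71% lower. In the G3BP1 RIP 1 rose and 8 fell, where 10.4% of all rose and 4.08% fell. With both arrays that stand apart left out, 1 rose and 12 fell in the G3BP1 RIP, where 11.1% of all rose and 13.7% fell. The stress change was higher in the TIAR RIP than in the G3BP1 RIP for 17 of 19 and lower for 0, where 5.05% of all transcript clusters were higher and 8.55% lower. Without both arrays these were 19 and 0, where 13.4% were higher and 11.3% lower. That difference shares the TIAR arrays with the change beyond input. The largest difference in the synthetase list was that of TARS1, at 1.74 (limma, adjusted p = 0.00034), and NARS1 stood at 1.07 with a change beyond input of 0.06.

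**Figure D4:**
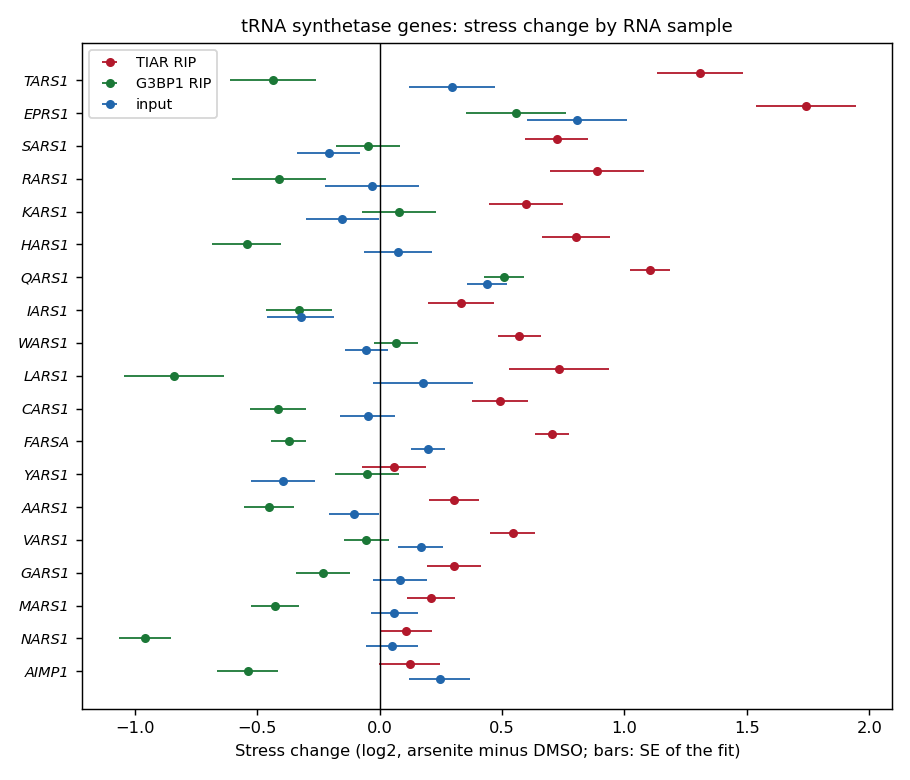
Stress change (x axis, log2, arsenite minus DMSO, bars for the SE of the fit) of the 19 genes of the tRNA synthetase list (y axis) in the TIAR RIP, the G3BP1 RIP and input. AIMP1, a scaffold protein, is among the 19. The TIAR points lie right of the G3BP1 points for all 19 genes, 17 of them called.

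Initiation factors rose beyond input in 1 of 25 and fell in 0, with a median of 0.401. With both arrays that stand apart left out, 4 were called higher at a median of 0.315, and over the 22 alternatives the count ran from 0 to 8. The called gene was EIF3B, a scaffold subunit of eIF3 (0.70 ± 0.14; limma, adjusted p = 0.0368), which rose by 0.36 in the TIAR RIP and fell by 0.34 in input. Mitochondrial ribosomal protein genes rose in 2 of 65, MRPL46 (0.76 ± 0.13) and MRPS7 (0.66 ± 0.12; limma, adjusted p = 0.0204 and 0.0319), with a median of 0.288, or 10 rises and 0.125 without both arrays that stand apart. In the top 25% of named genes by level 70 of 3558 rose at a median of 0.246, or 279 at 0.125 without both arrays. The mitochondrial ribosomal medians lay near these. The call was lost in 10 of 22 alternatives for EIF3B, 6 for MRPL46 and 11 for MRPS7.

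TOP mRNAs, which encode ribosomal proteins and elongation factors and open with a C and a run of pyrimidines, are known targets of TIAR and its relative TIA1 when amino acids are scarce. The list used for them also held NPM1 and NACA, which encode neither. Some of its members, such as RPL10L and RPS27L, had no pyrimidine run at the RefSeq start. They rose in 1 of 35 and fell in 0, with a median of 0.259, or 3 rises and 0.181 without both arrays that stand apart. The called gene was RPL8, at 0.58 ± 0.09 (limma, adjusted p = 0.014). It had 13.71, 13.81 and 13.65 in stressed TIAR RIPs, against 13.07, 13.06 and 13.13 in unstressed ones, and its input values moved by 0.06. The start windows below show the motif in the other named TOP mRNAs, with 10 bases before the RefSeq start and 20 from it (GRCh38.p14), and capitals mark the pyrimidine run from the start.
RPS14, chr5:150449720-150449749, minus strand: ccctcccactCTCTCTTTCCggtgtggagt
RPL18, chr19:48619159-48619188, minus strand: agcccgttctCTCTTTCCggacctggccga
RPS19, chr19:41860245-41860274, plus strand: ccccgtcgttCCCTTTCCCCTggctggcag
Their changes beyond input were 0.98 ± 0.23 for RPS14, 0.43 ± 0.11 for RPL18 and -0.69 ± 0.19 for RPS19, none of them called (limma, adjusted p = 0.0765, 0.0822 and 0.127). Without both arrays that stand apart RPS14 (0.77) and RPL18 (0.43) were called higher and RPS19 (-0.65) was not called (limma, adjusted p = 0.0296, 0.0477 and 0.115). Of 28 genes of this list with a RefSeq start, 20 (71.43%) had a C followed by at least 4 pyrimidines, against 4.383% of all 11385 named genes with a start. Across those, 4 of 499 with the pattern rose (0.802%) and 68 of 10886 without it (0.625%), with medians of 0.114 and 0.0818. Ribosomal protein genes have near-identical copies elsewhere in the genome, so probes of these transcript clusters can share signal and their values are uncertain. The search read 1 strand from the start.

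Metabolic and protein turnover genes had few calls, and their medians are set beside 0.246 and 70 rises of 3558 for the top 25% of named genes by level. Without both arrays that stand apart that group had 279 rises of 3558, at a median of 0.125, beside which the counts in that setting stand. Oxidative phosphorylation genes rose in 1 of 57, the complex I gene NDUFA2 (0.74 ± 0.14; limma, adjusted p = 0.0345), with a median of 0.314, and in 6 without both arrays that stand apart. The NDUFA2 call was lost in 10 of 22 alternatives. Genes of glycolysis and the TCA cycle rose in 1 of 32 (ENO1), with a median of 0.336, or 0.0896 after quantile normalization. Proteasome subunit genes rose in 2 of 29, PSMC3 (0.78 ± 0.16) and PSMD2 (0.76 ± 0.16; limma, adjusted p = 0.0441 for both), with a median of 0.297. Each of these calls was lost in 12 of 22 alternatives, and the count ran from 0 to 2. Genes of ER translocation, folding and glycosylation had 0 calls of 38 at a median of 0.311, and 4 without both arrays. The ER chaperone HSPA5 had 0.66 ± 0.15 (limma, adjusted p = 0.0697), and it rose by 1.22 in the TIAR RIP and by 0.56 in input. Ubiquitin ligases and deubiquitinases had 0 calls of 42 at a median of 0.387, where 11 fell in the TIAR RIP (5.71% over all transcript clusters) and 20 fell in input (11.2%). All 5 of these lists kept a median above 0 under every alternative run.

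Immediate early genes ran the other way. EGR1 fell beyond input and 0 rose among 29, the median was -0.117, and 7 of 29 were above 0. Over all 14232 named genes 6 fell and 80 rose, the median was 0.0686, and 8640 were above 0. FOS, an AP-1 subunit, had 8.35, 8.53 and 8.49 in stressed TIAR RIPs, against 7.94, 7.83 and 8.08 in unstressed ones, and 8.93, 9.05 and 9.18 in stressed input against 7.85, 8.04 and 7.89 in unstressed input. No arrays overlapped in either pair. Its change beyond input was -0.62 ± 0.18 and was not called (limma, adjusted p = 0.147). Without both arrays that stand apart EGR1, FOS, KLF6 and DUSP1 fell beyond input, 4 of 29, where 61 of 14232 named genes fell. The list's median stayed below 0 in every alternative run, at -0.301 after quantile normalization. In the ATF4 pathway 1 of 24 genes fell, ATF4 itself, and the median was 0.20.

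Of 73 matrix protein genes, 30 rose with stress in the TIAR RIP (6.15% over all transcript clusters) and 25 rose in input (2.52%), while 0 were called beyond input, at a median of 0.011 (-0.0994 after quantile normalization). C2H2 zinc finger genes had 0 calls of 305 at a median of 0.086 (-0.013 after quantile normalization), and 29 fell in the TIAR RIP and 57 fell in input. Over all 14232 named genes 1017 and 1927 fell in these samples. AU-rich cytokine and growth mRNAs, the class that TIAR is known to bind, had 0 calls of 21 at a median of -0.056. Calls over all 14232 named genes were 80 rises and 6 falls, at a median of 0.0686. At that share 0 calls in a list of 21 says nothing about its members. Among stress granule and RNA-binding proteins 1 of 35 rose, HNRNPA2B1 (0.89 ± 0.18; limma, adjusted p = 0.0371), whose protein packages pre-mRNA. Splicing factors, mitosis genes, DNA repair genes, heat shock proteins, solute carriers, vesicle genes, histones, chromatin regulators and apoptosis genes had 0 calls. At the share over all named genes these counts say little about such lists. Of the cell type markers, 1 of 5 myeloid ones rose, the lysosomal protein gene CD68 (0.72 ± 0.14; limma, adjusted p = 0.0366), while the defining leukocyte marker PTPRC lay at 3.58 in stressed and 3.69 in unstressed TIAR RIPs. After quantile normalization the change of CD68 was 0.39 and not called. Of the 22 alternatives the call was lost in 11 for HNRNPA2B1 and 14 for CD68. The 11 astrocyte, 5 neuron, 5 epithelial and 2 blood markers had 0 calls.

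**Figure D5:**
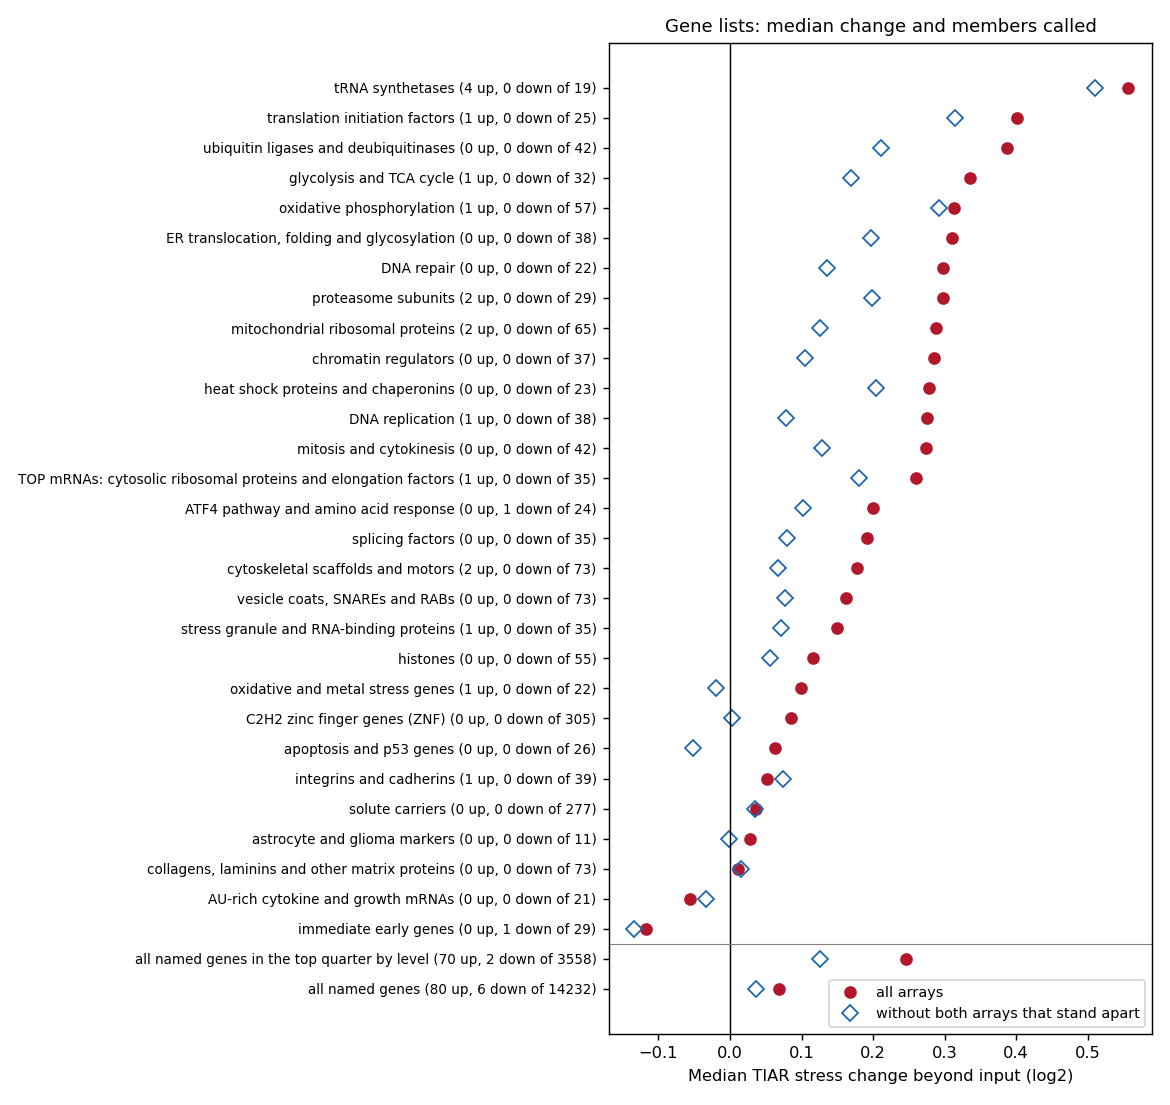
Median TIAR stress change beyond input (x axis, log2) of each gene list with 10 or more measured genes (y axis), over all arrays (filled points) and without both arrays that stand apart (open points), with the number called beside each name. tRNA synthetases lie farthest right at 0.556 and immediate early genes farthest left at -0.117.

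ECT2 and AURKB, the cell division genes named in the study's title, were not called. ECT2, a regulator of cytokinesis, had 10.68, 10.06 and 10.55 in stressed TIAR RIPs, against 10.07, 9.98 and 9.49 in unstressed ones, and its change beyond input was 0.59 ± 0.35 (limma, adjusted p = 0.51). For AURKB, a mitotic kinase, it was 0.09 ± 0.12 (limma, adjusted p = 0.806). The antibody target's own mRNA, TIAL1, had 0.10 ± 0.22 (limma, adjusted p = 0.884), TIA1 had 0.33 ± 0.29 and G3BP1 had -0.04 ± 0.18 (limma, adjusted p = 0.674 and 0.952). ECT2 arrays overlapped between the stressed and unstressed RIPs.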

How the data were processed

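RNA was measured on Affymetrix exon arrays, 18 in 6 groups of 3. Per the submitters' processing notes, the authors ran RMA in Affymetrix Expression Console, which gives a log2 signal, and these deposited log2 values were used unchanged. For the software version and the probe-set level, the sources used here give nothing, nor do they say that the arrays were normalised together.

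A model of 6 group means was fitted to all 18 arrays and 22011 transcript clusters with lmFit and eBayes in limma 3.58.1 (R 4.3.3), and contrasts were tested two-sided with Benjamini-Hochberg adjustment at 0.05 over all transcript clusters. Errors of log2 changes are standard errors of the fit. The labels number biological replicates, but where these are not separate cultures the p-values measure only the spread between these arrays. Genes were named from the platform table: 14432 transcript clusters had a single symbol (65.6%), 2408 several (10.9%) and 5171 none (23.5%). RefSeq (GRCh38.p14) changed 0 symbols. For each of 14232 genes the brightest transcript cluster was used. No probe was removed, and control probe sets are not marked.

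The groups, the 33 gene lists and the alternatives were chosen with earlier results of these data known, so lists are described by counts and medians without a test. Named genes had a single symbol. Up to 15 were taken in each direction and up to 5 in each class of component change. These had a mean level in the upper 75% and a call with 1 sign in all 81 combinations of arrays. Up to 4 per list were those with the smallest p, at any level and called or not. TIAL1, TIA1, G3BP1, ECT2, AURKB, EGR1 and ATF4 were always named. Other genes were chosen after their values were seen. Start windows came from RefSeq. Protein sequences were not used here. The fit was tested on simulated data.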

Additional observations from a re-analysis of the deposited data

Results flagged for a closer look

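For 13 of 19 genes with large changes beyond input, the stress change of the TIAR RIP differed from that of the G3BP1 RIP (limma, adjusted p under 0.05). Over all transcript clusters 5.05% were higher and 8.55% lower in this difference, or 13.4% and 11.3% without both arrays that stand apart, where all 13 differed as well. The difference shares the TIAR arrays with the change beyond input, on which the 19 genes were chosen, so the count is a description. It was higher in the TIAR RIP for EXOSC9 (2.29), AATF (1.86), ENO1 (1.25), DNAJC7 (1.24), PIGU (1.22), IMPDH2 (0.96), FAM50A (0.78), SARS1 (0.77), PSME1 (0.76) and WDR74 (0.71). It was lower for PBDC1 (-0.53), EGR1 (-0.85) and ANKRD49 (-1.06). EXOSC9 and AATF fell in the G3BP1 RIP while they rose in the TIAR RIP.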

How the results depend on the processing

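Of 19 genes with the largest changes, 8 stayed called in all 22 alternatives: DNAJC7, AATF, PACSIN3, PSME1, WDR74, ENO1, FAM50A and ATF4. Over these genes and alternatives, 319 of 418 values kept direction and call, 99 lost the call and 0 turned. The counts of rises and falls moved more. Array weights gave 1203 rises and 269 falls, cyclic loess 269 and 56, and the setting without both arrays that stand apart 594 and 138. There were 208 rises without the lowest 25% of transcript clusters by level and 298 without the lowest 50%, where fewer were tested. Median centring gave 40 falls and quantile normalization 63. An intensity trend with a robust prior gave 189 rises and the 12 arrays alone 129. With replicate number as a block 47 rose and 8 fell. Whether same-numbered arrays were prepared together is not stated. Of 18 same-numbered pairs 4 had a correlation of deviations over 0.1 (range -0.394 to 0.175). With 3 arrays in a group these correlations cannot settle it, so the lower count with the block cannot be set aside. Leaving out 1 array gave 14 to 112 rises and 1 to 16 falls. The cause of these shifts was not tested. The lowest 25% by level held 0 rises and 3 falls, and how far dim signal limits calls was not tested.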
